A study of Mus musculus with 2 samples.

Results

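Chemokine ligands and receptors were examined as a gene family in PDGFRα+ cells of mouse subcutaneous fat. Probe sets were taken where the platform annotation names exactly 1 gene and its symbol is Ccl, Cxcl, Ccr or Cxcr with a number, or Cx3cl1 or Cx3cr1, and the probe set with the highest mean over both arrays stood for its gene. This gave 49 genes of the 19938 genes on the arrays, 33 ligands and 16 receptors, read by 54 probe sets. The cells were sorted with a PE-coupled PDGFRα antibody from the stromal vascular fraction, the non-adipocyte cells freed by collagenase, of the inguinal white fat (ingWAT) of 6-week-old female mice. One group carried floxed Sox9 and the other was Sox9 PreASKO, and both had received doxycycline at postnatal day 1, so that the controls share the drug. The labels neither spell out PreASKO nor name the promoter that drives the deletion. RNA of each group was a pool of 3 mice on 1 array, so no value below has a replicate, an error or a p-value.

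Chemokines are small secreted proteins that guide leukocytes along gradients held on matrix sugars. They are named by the spacing of their first cysteines as CC, CXC and CX3C ligands, and they act through G protein-coupled receptors found mainly on leukocytes. In fat, stromal cells and tissue macrophages both make them, and they are best known there for drawing monocytes, eosinophils and other immune cells into the tissue.

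All levels are the deposited values on a log2 scale, and all differences are PreASKO minus floxed, so that 0.585 is the 1.5-fold limit named by the series. Levels of different genes come from different probes and are not compared with each other. Olfactory receptor genes, taken as silent in these cells, set the background: across 1015 such genes the 95th percentile was 4.64 (floxed) and 4.48 (PreASKO), and 4.64 served as the mark for both arrays. The arrays had medians of 4.73 and 4.71. Sox9 was at 5.25 and 4.97 and Pdgfra at 9.86 and 9.55, neither 1.5-fold different, so the level of Sox9 did not check the labels, and whether its probes fall in the deleted exons was not examined.

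Above background in both arrays were 30 of the 49 genes, 24 of 33 ligands and 6 of 16 receptors. The other 19 genes were below background in both arrays, with values from 2.78 to 4.63, and no member crossed the mark in only 1 array. Of all 19938 genes on the arrays, 11013 were above background in both arrays, 783 in only 1 and 8142 in neither. Of the members, nearest to the mark were the receptor gene Ccr1 just below it (3.98 in floxed, 4.63 in PreASKO) and Ccr10 just above it (4.65 and 4.82). With the mark at the 99th percentile 26 genes were above background in at least 1 array, 25 of them in both. Ccl25, Ccr10, Ccr2 and Cxcr3 were no longer among the 26, so these 4 are weakly detected.

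**Figure D1:**
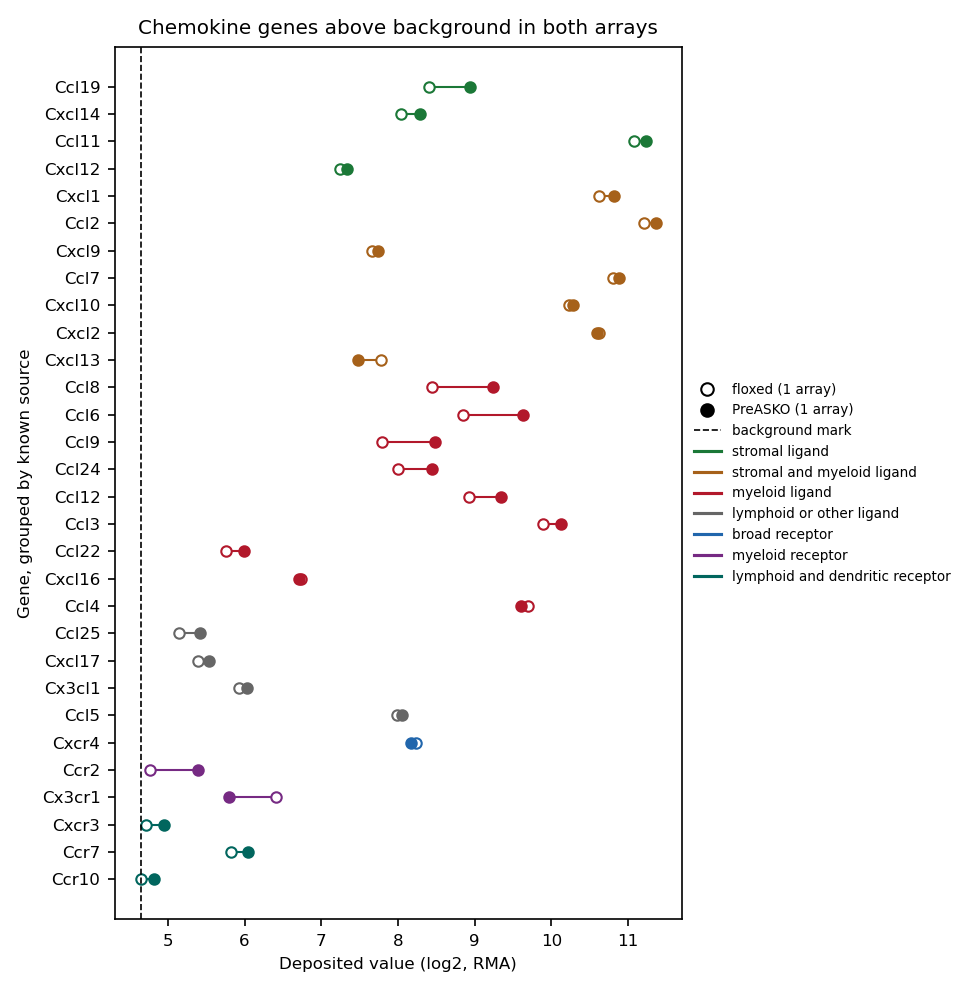
Deposited log2 values of the 30 chemokine genes above background, with 1 open circle for the floxed array and 1 filled circle for the PreASKO array per gene, coloured by known source; the dashed line is the background mark of 4.64. The longest lines to the right belong to Ccl8, Ccl6, Ccl9 and Ccr2, and Cx3cr1 has the longest line to the left.

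Over all 49 genes 29 were higher (59.2%, against 48.2% of all genes), 18 lower and 2 equal in PreASKO. The median difference was 0.09 against 0.00 over all genes. Of the 30 members above background in both arrays 24 were higher (80%), against 53.4% of all genes above background in both arrays. At least 1.5-fold higher were 5 members, or 10.2%, while 1.66% of all genes were (331 genes). At least 1.5-fold lower was 1 member, or 2.04%, against 1.98% of all genes (394 genes), so this count was near that of the arrays as a whole. The 5 were the ligand genes Ccl8, Ccl6 and Ccl9 and the receptor genes Ccr2 and Ccr1, and the 1 was the receptor gene Cx3cr1. With values below background raised to the mark Ccr1 dropped out, which left 4 higher and 1 lower, against 161 higher (0.808%) and 103 lower (0.517%) of all genes. No member reached 2-fold.

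**Figure D2:**
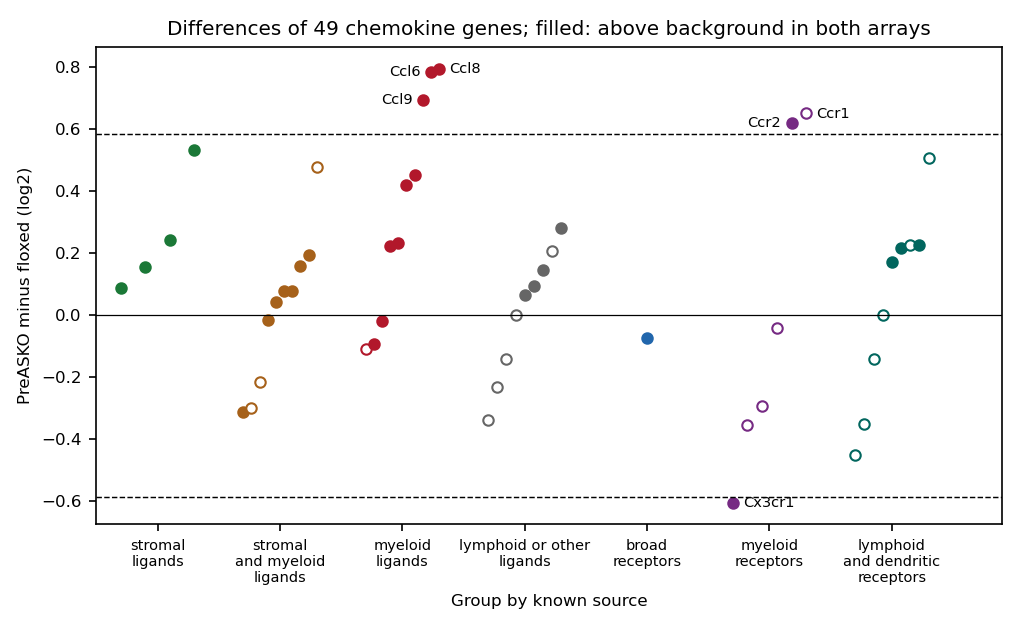
Difference PreASKO minus floxed (log2) of all 49 chemokine genes, 1 point per gene, grouped by kind and known source, with dashed lines at 1.5-fold; filled points are above background in both arrays. The genes past the lines are Ccl8, Ccl6, Ccl9, Ccr2 and Ccr1 at the top and Cx3cr1 at the bottom.

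Ligands known mainly from macrophages and dendritic cells held the 3 ligand genes past the limit. Of 10 such genes 7 were higher and 3 lower, with a median of 0.33 that fell to 0.12 when the ligands made by both stromal and myeloid cells were added. Ccl8, made by tissue-resident macrophages, was at 8.45 in floxed and 9.24 in PreASKO, 1.73-fold higher. Ccl6, a ligand of the receptor CCR1 made by myeloid cells, was at 8.84 and 9.63, 1.72-fold higher. Ccl9, another CCR1 ligand of macrophages, was at 7.79 and 8.49, 1.62-fold higher. These 3 are well above background in both arrays. They were 3 of 17 members with a mean level of at least 8, a limit chosen after seeing the data. Of the 1818 genes on the arrays at this level 1.32% were 1.5-fold higher and 0.11% were 1.5-fold lower.

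The other ligands of this source stayed inside the limit. Ccl24, the macrophage eotaxin, was at 7.998 and 8.45, a difference of 0.45. Ccl12, a monocyte attractant that binds CCR2, was at 8.93 and 9.35, a difference of 0.42. Smaller differences were found for Ccl3 (9.89 and 10.12), which attracts macrophages and T cells, and for the dendritic cell ligand Ccl22 (5.76 and 5.99). Ccl4, a macrophage inflammatory protein that is often made together with Ccl3, was at 9.70 and 9.60, a difference of -0.09. Cxcl16, a membrane-bound ligand of CXCR6, was at 6.74 and 6.71, and Ccl17, a CCR4 ligand of dendritic cells, was below background in both arrays (4.44 and 4.33). The group therefore ran from -0.11 to 0.79, and its members did not share 1 shift.

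Macrophage markers were higher in PreASKO, as were 7 of these 10 ligands. All 18 markers of the list were above background in both arrays and higher in PreASKO. The median was 0.44, and 4 passed 1.5-fold (22.2%, against 1.66% of all genes). Of all genes above background in both arrays 53.4% were higher. Their levels, taken off the log2 scale and summed, were 8379.8 in floxed and 11543 in PreASKO. The marker differences ran from 0.22 for Mrc1, the mannose receptor, to 0.77 for Tyrobp, a signalling adaptor of myeloid receptors. Ccl8 (0.79) and Ccl6 (0.78) lay just above this range, Ccl9 (0.69), Ccl24, Ccl12 and Ccl3 lay within it, and Ccl22, which nearly equalled Mrc1, Cxcl16, Ccl4 and Ccl17 lay below each of the 18 markers. The part of macrophage RNA in these differences was not tested, and in sorted cells measured in bulk, more cells of a type and more RNA per cell cannot be told apart.

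**Figure D3:**
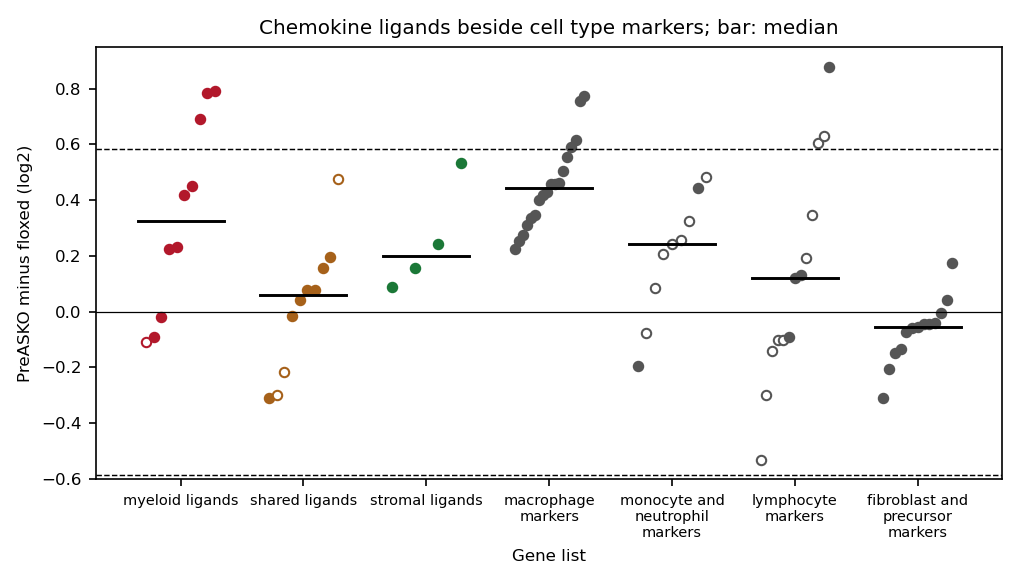
Difference PreASKO minus floxed (log2) of myeloid, shared and stromal chemokine ligands beside markers of 4 cell types, 1 point per gene with the median as a bar and dashed lines at 1.5-fold; open points are not above background in both arrays. Macrophage markers are all higher (median 0.44), fibroblast and precursor markers centre near 0 (median -0.05), and the myeloid ligands spread from -0.11 to 0.79.

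Ligands of stromal source were each a little higher in PreASKO, by less than 1.5-fold. All 4 were above background in both arrays, and their median was 0.20, or 0.083 with the ligands made by both stromal and myeloid cells added. Of all genes above background in both arrays the middle 50% lay between -0.11 and 0.16, a range that holds Ccl11 and Cxcl12. Ccl19, which attracts T cells and dendritic cells through CCR7 and is made by lymphoid tissue stroma, had the largest difference, at 8.40 and 8.93, or 1.45-fold. Its 5 probe sets differed by 0.52 to 0.53, but some of them hold identical readings, so they are not independent. Cxcl14, a fibroblast and epithelial chemokine, was at 8.04 and 8.29. Ccl11, eotaxin, the eosinophil attractant, was at 11.08 and 11.23. Cxcl12, stromal cell-derived factor, which retains leukocytes and progenitors through CXCR4, was at 7.25 and 7.34. Of the 13 measured fibroblast and adipocyte precursor markers, 2 were higher and 11 lower, none by 1.5-fold, with a median of -0.05 and summed levels of 25518 and 24970.1. All 13 were above background in both arrays, and of the 11013 genes with this status 5881 were higher and 4937 lower. As a list these markers were thus not higher along with the stromal ligands. The part of stromal cell RNA in the ligand differences was not tested.

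Ligands known from both stromal and myeloid cells differed little. Of 10 genes 7 were above background, and none of the 10 reached 1.5-fold, with a median of 0.06. Ccl2, the main monocyte attractant, was at 11.20 and 11.36, and Ccl7, which shares its receptor CCR2, was at 10.80 and 10.88. The neutrophil attractants Cxcl1 (10.61 and 10.81) and Cxcl2 (10.62 and 10.60) differed by 0.19 and -0.02. Of the interferon-induced ligands of CXCR3, Cxcl10 was at 10.23 and 10.28 and Cxcl9 at 7.67 and 7.74, whereas Cxcl11 was below background. Cxcl13, the B cell attractant, was the only 1 of the 7 detected genes with a decrease of more than 0.1, at 7.78 and 7.47, a difference of -0.31. Cxcl3 and Cxcl5, further neutrophil attractants, were below background in both arrays.

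Of the 9 ligands known mainly from lymphocytes, epithelium or endothelium, 4 were above background and each differed by less than 0.3. Ccl5, the T and NK cell ligand RANTES, was at 7.99 and 8.05. Cx3cl1, fractalkine, the membrane-bound ligand of CX3CR1, was at 5.93 and 6.03, and the mucosal chemokine gene Cxcl17 was at 5.40 and 5.54. Ccl25, a thymus and gut chemokine, was at 5.14 and 5.42 on the brighter of its 2 probe sets, a difference of 0.28, and the other probe set differed by 0.54 with a floxed value of 4.63, below background. Ccl1, Ccl20, Ccl26, Ccl28 and Cxcl15 were below background in both arrays.

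Receptors differed in both directions, and most were not detected. Of 16 genes 7 were higher, 8 lower and 1 equal, with a median of -0.02 that turned to 0.011 after loess correction and 0.020 after quantile normalization, and 10 were below background in both arrays. Ccr2, the monocyte receptor for CCL2, was at 4.77 in floxed and 5.39 in PreASKO, 1.54-fold higher. Its floxed value lay only slightly above the mark, so the size of this difference is poorly measured. Ccr1, the receptor for CCL3, CCL6 and CCL9, was at 3.98 and 4.63, a difference of 0.65 wholly below background, so no fold is given. Cx3cr1, the fractalkine receptor of macrophages and monocytes, was at 6.40 and 5.80, 1.52-fold lower and close to the limit. It thus differed opposite to each of the 18 macrophage markers and to Ccr2. Both Ccr2 and Cx3cr1 were above background in both arrays.

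Cxcr4, the broadly expressed receptor for CXCL12, was at 8.24 and 8.17. Among lymphocyte and dendritic cell receptors, Ccr7, the lymph node homing receptor, was at 5.83 and 6.04. Cxcr3, the T and NK cell receptor for the interferon-induced ligands, was at 4.72 and 4.95, and Ccr10, a receptor for skin and mucosal ligands, was at 4.65 and 4.82, both next to the mark. The remaining 6 receptors of this source, Ccr4, Ccr6, Ccr8, Ccr9, Cxcr5 and Cxcr6, were below background in both arrays. So were the neutrophil receptor genes Cxcr1 and Cxcr2 and the eosinophil receptor gene Ccr3. Markers of these cells were mixed. The neutrophil genes S100a8, S100a9 and Ly6g and the eosinophil gene Epx were below background in both arrays. Above it in both arrays were Csf3r, the G-CSF receptor gene (4.68 and 5.12), Plac8 (9.27 and 9.08) and the eosinophil marker Siglecf (4.67 and 4.74), of which Csf3r in floxed and Siglecf lay next to the mark. The other 3 detected genes of the eosinophil and mast cell list were lower: Cpa3 (6.32 and 5.95), Tpsb2 (5.68 and 5.42) and Mcpt4 (7.80 and 7.65). Over its 4 detected genes the median of this list was -0.21. The lymphocyte list had 8 of 13 measured markers below background in both arrays and a median of 0.12. Of the 13, 7 were higher and 6 lower. At least 1.5-fold higher were 3 (23.1%, against 1.66% of all genes), and none was 1.5-fold lower. The 3 were Cd3e, a T cell receptor subunit, at 4.96 and 5.84, Cd8b1 (4.10 and 4.73) and Il7r. Cd8b1 was above background only in PreASKO and Il7r in neither array. The largest decrease was that of Cd4, at 4.59 and 4.06, below background in both arrays. Medians of the other marker lists were 0.24 for 9 monocyte and neutrophil genes (6 below background in both arrays), -0.14 for 10 eosinophil and mast cell genes (6 below), -0.08 for 9 dendritic cell genes (4 below), -0.13 for 11 endothelial genes (3 below), -0.32 for 10 mural cell genes (1 below) and 0.05 for 6 mesothelial genes (5 below). Over genes above background in both arrays the dendritic cell median was 0.24 (5 genes) and the endothelial median 0.04 (7 genes). Neither list thus has a settled direction. Among the 7 endothelial genes was Lyve1, higher by 0.43, which is also on the macrophage list. The dendritic cell marker Cd209a was at 5.99 and 6.997, the largest difference of all markers at 1.01. Other markers were more than 1.5-fold lower. In the same list this was Clec9a, below background in both arrays (4.39 and 3.75). The endothelial marker Kdr (5.55 and 4.86) and the mural marker Kcnj8 (5.98 and 5.36) were also lower, and both were above background in both arrays.

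**Figure D4:**
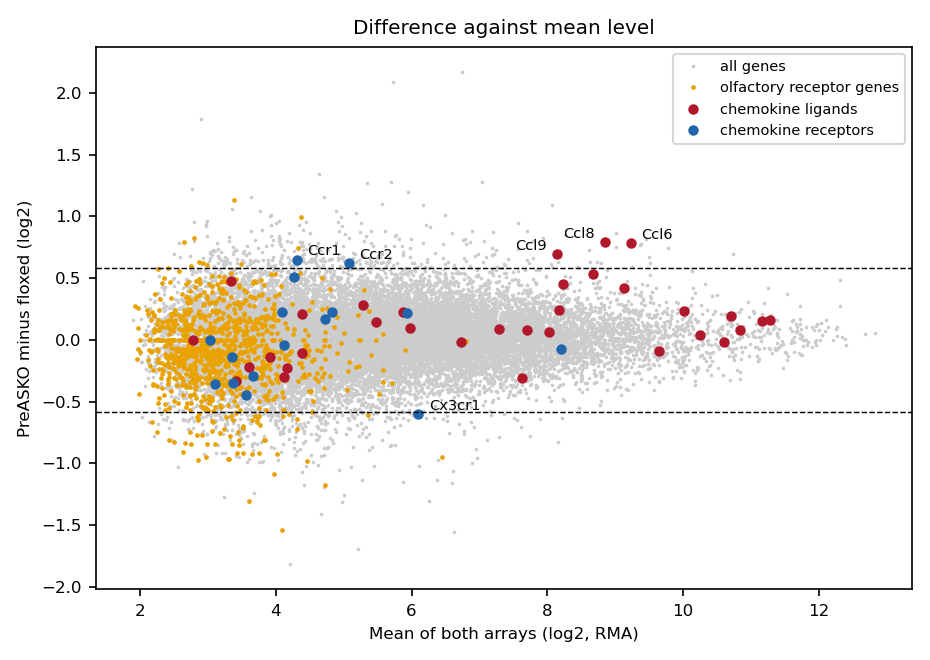
Difference PreASKO minus floxed (log2) against the mean of both arrays (log2) for 19938 genes (grey), olfactory receptor genes (yellow), chemokine ligands (red) and receptors (blue), with dashed lines at 1.5-fold. Ccl8, Ccl6 and Ccl9 lie above the line at means over 8, and Ccr1 and Ccr2 lie above it among dim genes.

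Ligands and their receptors can be set side by side. CXCL12 had transcripts of both its receptors, Cxcr4 and the scavenging receptor gene Ackr3 (9.44 in each array), and all 3 genes differed by less than 0.1. The CCR2 ligand genes Ccl2, Ccl7 and Ccl12 differed by 0.16, 0.08 and 0.42 while Ccr2 differed by 0.62. The eotaxin genes Ccl11 and Ccl24 were detected, and their receptor gene Ccr3 was below background. Likewise Cxcl1 and Cxcl2 were detected without Cxcr2, and Cxcl16 without Cxcr6. Cx3cl1 differed by 0.09 and Cx3cr1 by -0.60. Ccl19 and Ccr7 were both higher, by 0.53 and 0.22.

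Chemokine genes lie in clusters, and the differences varied within the stretches of neighbours in the RefSeq gene table. In the stretch of 6 consecutive protein-coding genes from Ccl2 to Ccl1, the differences were 0.16 for Ccl2, 0.08 for Ccl7, 0.16 for Ccl11, 0.42 for Ccl12 and 0.79 for Ccl8, with Ccl1 below background. In the stretch of 5 genes from Ccl5 to Ccl4, they were 0.06 for Ccl5, 0.69 for Ccl9, 0.78 for Ccl6, 0.23 for Ccl3 and -0.09 for Ccl4. In both stretches genes past 1.5-fold lay next to genes inside that limit, while Ccl9 and Ccl6 are adjacent and both past it. In the Cxcl5 to Cxcl2 stretch, Pf4, the platelet factor gene that resident macrophages also express, differed by 0.42 (9.93 and 10.35), against 0.19 for Cxcl1 and -0.02 for Cxcl2.

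**Figure D5:**
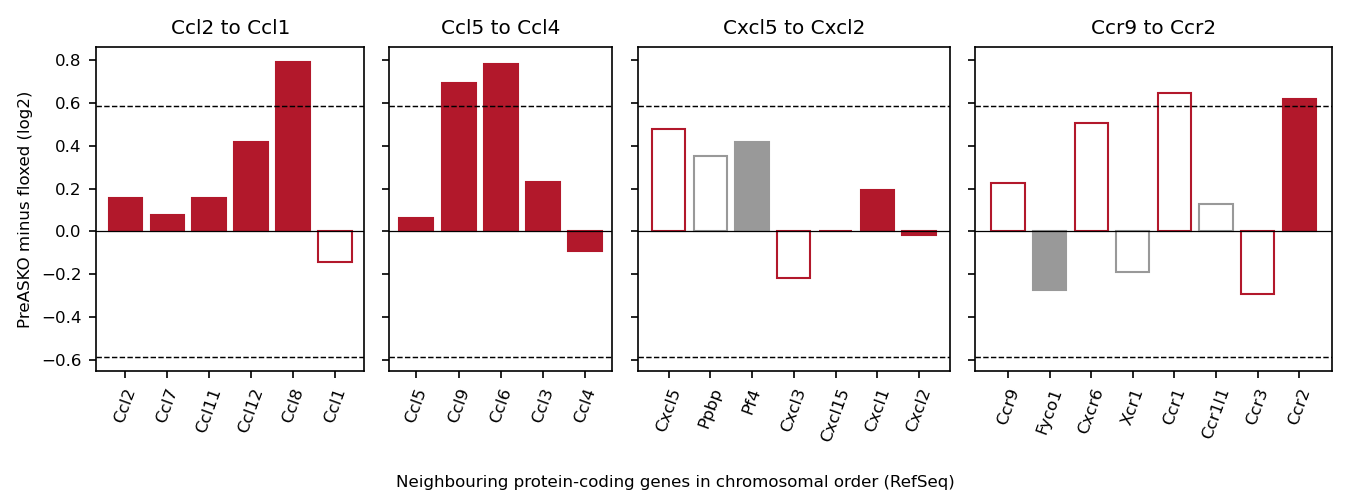
Difference PreASKO minus floxed (log2) of neighbouring protein-coding genes in 4 chemokine gene stretches, in chromosomal order, with dashed lines at 1.5-fold. Red bars are members, grey bars other genes, and open bars genes not above background in both arrays; Ccl8, Ccl9, Ccl6 and, below background, Ccr1 pass the upper line, as does Ccr2.

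RefSeq promoter windows were found for 35 of the 49 genes. The 250 bases before the start of transcription are shown for the 3 ligand genes past the limit, for Cx3cr1, and for 3 ligand genes within 0.2 of level that hold an NF-kB motif. All are from GRCm38.p6, written 5′ to 3′ in the direction of the gene, and capitals mark the motifs searched on both strands. Ccl8 is at chr11:82114935-82115184 (plus strand), Ccl6 at chr11:83593088-83593337 (minus), Ccl9 at chr11:83578637-83578886 (minus), Cx3cr1 at chr9:120068297-120068546 (minus), Cxcl1 at chr5:90890995-90891244 (plus), Cxcl2 at chr5:90903649-90903898 (plus) and Cxcl10 at chr5:92348890-92349139 (minus).
Ccl8: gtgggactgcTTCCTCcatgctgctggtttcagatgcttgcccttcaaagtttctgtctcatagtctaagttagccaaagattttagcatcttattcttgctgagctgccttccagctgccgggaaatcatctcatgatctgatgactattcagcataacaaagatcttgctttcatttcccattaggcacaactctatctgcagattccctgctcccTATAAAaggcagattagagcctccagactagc
Ccl6: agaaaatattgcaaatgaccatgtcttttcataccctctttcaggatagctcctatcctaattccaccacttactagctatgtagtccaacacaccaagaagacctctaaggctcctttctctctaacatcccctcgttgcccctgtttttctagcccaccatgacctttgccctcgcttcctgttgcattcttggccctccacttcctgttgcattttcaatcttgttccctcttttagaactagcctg
Ccl9: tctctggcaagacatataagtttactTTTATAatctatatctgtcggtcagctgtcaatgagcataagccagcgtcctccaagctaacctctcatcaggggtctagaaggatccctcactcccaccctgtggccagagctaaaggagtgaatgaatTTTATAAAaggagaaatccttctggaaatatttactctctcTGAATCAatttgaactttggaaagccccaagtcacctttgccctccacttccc
Cx3cr1: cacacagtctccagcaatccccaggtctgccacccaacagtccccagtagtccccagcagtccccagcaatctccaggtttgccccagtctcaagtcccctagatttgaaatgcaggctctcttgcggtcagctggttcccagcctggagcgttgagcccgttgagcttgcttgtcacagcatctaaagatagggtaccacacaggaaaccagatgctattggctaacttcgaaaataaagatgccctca
Cxcl1: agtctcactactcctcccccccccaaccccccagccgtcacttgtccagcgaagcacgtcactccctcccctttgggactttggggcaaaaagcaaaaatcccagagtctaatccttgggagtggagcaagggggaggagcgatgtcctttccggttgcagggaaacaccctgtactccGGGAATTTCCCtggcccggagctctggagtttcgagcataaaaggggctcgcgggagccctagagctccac
Cxcl2: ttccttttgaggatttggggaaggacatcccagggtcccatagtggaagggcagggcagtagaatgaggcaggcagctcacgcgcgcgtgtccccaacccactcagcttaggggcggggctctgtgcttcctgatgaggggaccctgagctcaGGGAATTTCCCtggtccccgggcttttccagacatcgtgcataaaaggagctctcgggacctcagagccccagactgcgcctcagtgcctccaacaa
Cxcl10: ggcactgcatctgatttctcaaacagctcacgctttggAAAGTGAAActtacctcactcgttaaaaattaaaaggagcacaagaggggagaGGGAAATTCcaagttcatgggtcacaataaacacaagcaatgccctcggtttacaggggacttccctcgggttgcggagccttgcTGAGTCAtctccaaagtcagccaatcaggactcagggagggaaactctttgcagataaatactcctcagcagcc

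NF-kB, the factor that switches on many inflammatory genes, was searched as GGGANNTTC. These letters were present in 8 of 35 members (22.9%) and in 3.23% of all 32851 windows. For each motif the member share counts genes with a match in any of their windows, and the other share counts windows. They are therefore unlike measures, and a gene with several windows has more chances to match. The 8 were Cxcl1, Cxcl2, Cxcl3, Cxcl9, Cxcl10, Ccl1, Ccr3 and Cxcr2, of which Cxcl1, Cxcl2 and Cxcl3 are related neighbours and not independent. In Cxcl1 and Cxcl2 the match lies 71 and 97 bases before the start and reads on both strands, in overlapping places. Ccl8, Ccl6, Ccl9 and Cx3cr1 held no match to these letters. The TATA box, TATAAA, was present in 10 members (28.6%) and in 12.4% of windows. In Ccl8 it lies 32 bases before the start, and in Ccl9 an overlapping pair on both strands lies 94 bases before it. The interferon response element, searched as AAANNGAAA, was found in Ccl19, Ccl28, Ccr1, Cxcl10 and Cxcl14 (14.3% of members, 9.37% of windows). The letters of PU.1, a myeloid factor (GAGGAA), were present in 31.4% of members and 23.3% of windows, Ccl8 among them. Those of AP-1 (TGANTCA) were in 11.4% and 6.75%. The C/EBP letters (TTGCNNAA) were in 2.86% and 9.56%. For SOX proteins (ACAATG) the shares were 5.71% and 10.7%, and the 2 members with these letters, Ccr3 and Ccr9, were below background in both arrays. A match of letters describes the window and is no evidence of binding.

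The other genes of the pathway were taken from a list of 91, of which 84 were measured. Of these 55 were higher and 29 lower, 5 were at least 1.5-fold higher and none 1.5-fold lower, with a median of 0.07. The 5 are 5.95% of the measured list, against 1.66% of all genes. At least 1.5-fold lower were 1.98% of all genes. Higher by any amount were 48.2% of all genes and 53.4% of those above background in both arrays. Among receptors related to the family, Cd74, the invariant chain that also binds the cytokine MIF, was at 9.40 and 10.15, 1.68-fold higher. Cmklr1, the chemerin receptor, differed by 0.48 and Ccrl2, which presents chemerin, by 0.32. Ackr1, a chemokine-binding receptor of venules, differed by -0.15. Of the ligands outside the naming rule, Mif differed by 0.21, Cklf by 0.07 and Xcl1, a lymphocyte ligand next to background, by -0.31.

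Genes that act downstream of the receptors followed no single direction. Of 19 measured receptor signalling genes 10 were higher and 9 lower, with a median of 0.06. Pik3cg, the PI3-kinase subunit that chemokine receptors activate, was at 5.19 and 5.87, 1.59-fold higher. Rgs1, a brake on G protein signalling in leukocytes, was at 5.89 and 6.47, just inside the limit, and Arrb2 and Grk5, which desensitise receptors, differed by 0.39 and 0.32. Of 16 migration genes 11 were higher, with a median of 0.11. Among the 14 above background in both arrays 9 were higher and 5 lower, while 53.4% of all genes with this status were higher. Coro1a, an actin regulator of leukocytes, was at 5.78 and 6.56, 1.72-fold higher, and the leukocyte integrin gene Itgb2 was at 5.70 and 6.32, 1.54-fold higher. Rac2, the leukocyte GTPase, differed by 0.48 and Itgam, which is also on the macrophage list, by 0.35. These genes are expressed in macrophages, whose markers were higher by a median of 0.44, and that part was not tested.

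Inducers and other regulators of chemokine expression were measured for 19 of 22 listed genes. Of these 16 were higher, with a median of 0.12, while 48.2% of all genes were higher. Among the 18 above background in both arrays 15 were higher, against 53.4% of all genes with this status. Il1b, an inflammatory cytokine, was at 5.05 and 6.33, 2.42-fold higher. Irf5, a myeloid interferon regulatory factor, differed by 0.49, Nfkb2, an NF-kB subunit, by 0.36 and the cytokine gene Tnf by 0.29. The part of macrophage RNA in these differences was not tested. Matrix anchors and proteases that act on chemokines went both ways, 6 higher and 7 lower of 13 measured genes, with a median of -0.02. The gelatinase gene Mmp9 differed by 0.44, Adam17, a sheddase of membrane-bound chemokines, by -0.26, Dpp4, the peptidase that trims CXCL12, by -0.15, and the heparan sulfate proteoglycan gene Hspg2 by 0.14.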

How the data were processed

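Expression was measured on 2 arrays, 1 per group. The authors deposited 1 value per probe set, made with RMA according to the submitters' processing notes; RMA subtracts background and equalises the distributions of arrays. That the deposited values are log2 was taken from their range of 1.23 to 13.8. Log base, version, build and filters are not given in the sources used here. RMA understates differences of dim genes. The table holds 35556 probe sets, of which 21789 name 1 gene in the platform annotation, 1621 name several and 12146 are not listed there. The symbols of all 49 members matched a RefSeq table of GRCm38.p6.

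Differences were set against 1.5-fold with no test, since each group has 1 array, and the number of arrays limits precision. Every member above background is named, and members below it where they passed the limit or their cell type is described. Up to 4 genes per role above background in both arrays, those with the largest difference, are named from the pathway list. Ackr3 and the named markers of cells other than macrophages were chosen after their values were seen. Members, lists and alternatives were chosen with earlier results of these data known, and source groups come from general knowledge. Alternatives were the mean over probe sets, centring, a loess correction (span 0.3), quantile normalization, other background marks, raising low values to the mark, a 2-fold limit and regrouped ligands. Motifs were matched as exact letters. The NF-kB and interferon motifs were each shortened by 1 letter after the longer forms had been searched, which raised their shares among members and among all windows; only the shorter forms are given. The promoters printed were chosen after the motif matches had been seen. Steps were tested on simulated data. Python 3.11.15, pandas 2.3.3, numpy 2.4.6 and statsmodels 0.14.6 were used.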

Additional observations from a re-analysis of the deposited data

How the results depend on the processing

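Of the 31 named differences (30 genes above background, and Ccr1), all kept their direction and their side of the 1.5-fold limit under the mean over probe sets, centring, loess correction and quantile normalization, with a largest shift of 0.129, that of Ccl25 under the mean over probe sets (0.41). Centring could not move any of them, since the median difference over all genes was already 0. The mean over probe sets could move only Ccl19 and Ccl25, the members with several probe sets. Raising low values to the background mark set Ccr1 to 0 by construction and changed no other named gene. Above background in at least 1 array were 36 and 26 members with the mark at the 90th and 99th percentile, and 33 with each array's own mark. After loess correction or quantile normalization there were 31, where Ccr1 passed the mark in PreASKO only. Above background in both arrays were 32, 25 and 30 members under these marks in turn, and 30 after either correction. The main setting gave 30 by either count. At the 2-fold limit 0 members were higher and 0 lower. With raised values the medians of myeloid receptors and of lymphoid and dendritic receptors were 0. Over members above background alone, the median was 0.19 for receptors and 0.0079 for myeloid receptors, so receptor medians have no settled direction. The receptor median was also above 0 after loess correction (0.011) and quantile normalization (0.020). Adding the shared ligands moved the median of stromal ligands to 0.083 and of myeloid ligands to 0.12. No replicate could be left out. No paired analysis was possible because there is only 1 array per group.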

Other observations

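The annotation of 7 further probe sets lists several genes each, at least 1 of them a chemokine gene, so they belong to no single gene and entered no count. They gave 3 distinct pairs of readings, from 5.75 to 6.59, all above the background mark. All 7 were higher in PreASKO, by 0.27 to 0.43, less than 1.5-fold.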
